A study of Mus musculus with 3 samples.

Results

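Pericytes and vascular smooth muscle cells, known together as mural cells, were examined in single-cell RNA-seq of mouse back skin at embryonic days E13.5 and E16.5 and at P0, the day of birth. A cell was counted as a mural cell when at least 4 of the 9 marker genes Rgs5, Kcnj8, Abcc9, Notch3, Cspg4, Higd1b, Ndufa4l2, Myh11 and Mcam were above 0. It also had to hold no molecule of Cdh5 (endothelial cells), Ptprc (leukocytes), Sox10 (Schwann cells and melanocytes) or Trp63 (basal keratinocytes). This rule was met by 421 of 16235 cells, namely 8 of the 5962 cells at E13.5, 184 of the 5208 at E16.5 and 229 of the 5065 at P0. Cells with and without a unique molecular identifier (UMI, the tag that marks a single captured mRNA) of Myh11, the smooth muscle myosin heavy chain, were kept apart. There were 37 cells with and 147 without Myh11 at E16.5, 125 with and 104 without at P0, and 8 without at E13.5. The skin came from male C57BL/6 mice, and no allele or treatment is given in the labels. Each stage was a single library made from several animals, and cells could not be assigned to an animal. Skin at E13.5 and E16.5 was dissociated with trypsin, whereas skin at P0 was dissociated with collagenase IV, so stage, enzyme and library cannot be told apart.

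Mural cells wrap the endothelial tube of blood vessels. Pericytes lie singly along capillaries within the vessel's basement membrane and depend on the receptor Pdgfrb, which binds PDGF-B released by endothelium. Vascular smooth muscle cells form rings around arterioles, arteries and larger veins and contract through smooth muscle actin and Myh11, and cells with intermediate properties occur where arterioles pass into capillaries.

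The 3 libraries held between 46599806 and 66239195 UMIs, with median depths per cell between 6797 and 11021. The median depth of the cells that met the rule was 13981 UMIs at E13.5 and 9929.5 and 6153 UMIs at the later stages. Barcodes present in more than 1 library numbered 115, and 0, 3 and 3 of the cells that met the rule carried such a barcode. Levels are given below as CPM, the UMIs of a gene per 1000000 UMIs summed over all cells of a group. All intervals are 95% intervals for counting error only, and no p-value is given because each stage had 1 library and cells are not replicates. A difference is the log2 of the ratio of 2 levels after 10 CPM was added to each. It is called past the fold when its size was at least 1, among genes with at least 50 UMIs in the compared groups together and found in at least 10% of the cells of the higher group, here called tested genes.

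Cells that met the rule made up 0.134% of the E13.5 library (0.0579 to 0.264%, exact binomial interval), 3.53% of the E16.5 library (3.05 to 4.07%) and 4.52% of the P0 library (3.97 to 5.13%). Among them the share with Myh11 was 0 of 8 at E13.5, which allows a share of up to 36.9%, 20.1% at E16.5 (14.6 to 26.6%) and 54.6% at P0 (47.9 to 61.2%). After every cell was thinned to 3500 UMIs and the rule was applied again, these shares were 0% of 2 cells, 21.7% of 143 cells and 43.5% of 209 cells. Keratinocytes, which should lack Myh11, held a Myh11 UMI in 0.735% of cells at E16.5 and 1.18% at P0, at median depths of 13634.5 and 10320 UMIs, and in 0.572% and 0.416% after thinning. Since Myh11 is one of the 9 markers, a Myh11 UMI itself helped a cell to meet the rule, so the distance of the share from keratinocytes is set in part by the choice of cells and is given as a description. The share was higher in the P0 library than in the E16.5 library before and after thinning.

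**Figure D1:**
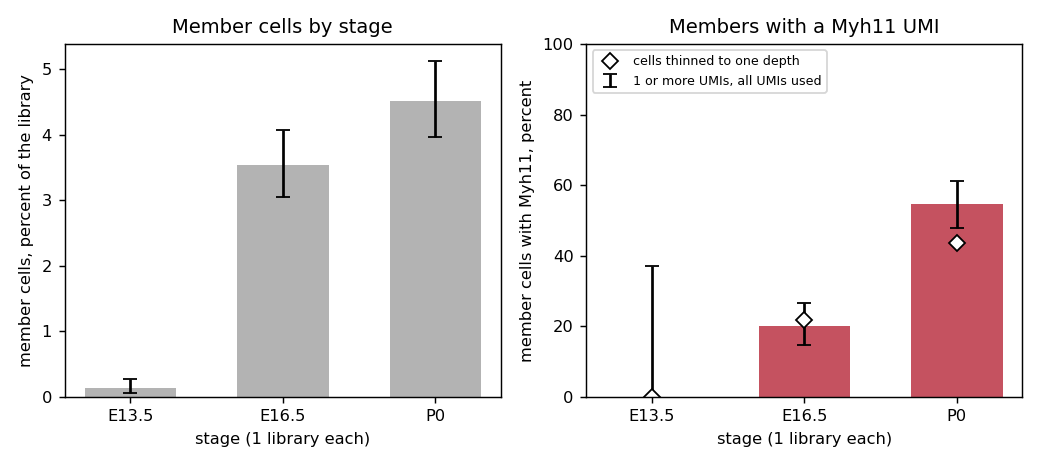
Left, cells that met the rule as a percent of all cells of the library at each stage; right, the percent of these with a Myh11 UMI. Bars are the values with exact 95% binomial intervals for counting error, and diamonds on the right are the values after thinning to 3500 UMIs. Cells that met the rule were 0.134% of cells at E13.5 and 3.53% and 4.52% at E16.5 and P0, and 20.1% and 54.6% of those at the later stages held Myh11.

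The label was checked by clustering each library without the 13 genes of the rule. At E16.5, 150 of the 184 mural cells (81.5%) fell in a single cluster of 181 cells, and the remaining 31 cells of that cluster each held a UMI of an excluding gene. At P0, 218 of 229 (95.2%) fell in a single cluster of 241 cells. Outside the rule, the leading genes of these clusters included Acta2, Cox4i2, Mylk and Myl9 in both libraries. Rgs5 and Kcnj8 also led in both. They are genes of the rule, and most cells of these clusters met it, so their lead does not check the label. Mural cells outside the cluster at E16.5 stood apart from those inside, with Acta2 at 382 CPM against 2313 CPM inside and the fibroblast collagen gene Col1a1 at 8031 CPM against 893 CPM. Those outside at P0 had Acta2 at 130 CPM against 5818 CPM and Col1a1 at 12482 CPM against 1393 CPM. At E16.5, 35 of the 37 cells with Myh11 but 115 of the 147 without lay inside, so results for cells without Myh11 at that stage are given with and without them where the difference matters. Scrublet called 3 of the mural cells at E16.5 and 8 at P0 as doublets, and it called 0 cells of the whole E13.5 library, so it gave no information there.

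Values just inside and outside the threshold were as follows. At E16.5 the 31 cells with 4 markers had Acta2 at 368 CPM, Cox4i2 at 102 CPM and Col1a1 at 7449 CPM, and the 122 cells with 3 markers and no excluding gene had them at 51.0, 38.0 and 8951 CPM. Cells with 5 markers already stood at 1869 CPM for Acta2 and 794 CPM for Cox4i2. At P0 the 25 cells with 4 markers had Acta2 at 3939 CPM, Cox4i2 at 590 CPM and Col1a1 at 5965 CPM, against 388, 118 and 8246 CPM in the 58 cells with 3 markers. Another 77 cells at E16.5 and 60 at P0 reached 4 markers but held an excluding gene. Trp63 was found in 46 of these at E16.5 and 35 at P0, and Cdh5 in 34 and 19.

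At E13.5 the label did not hold as a cell population. The 8 cells lay in 6 clusters, with at most 2 in any cluster, and 5 of them had exactly 4 markers. Kcnj8, the pore subunit of an ATP-sensitive potassium channel, was above 0 in all 8, whereas Rgs5, a regulator of G-protein signalling abundant in pericytes, was above 0 in 3. The cell with the most UMIs, 28537, held 6 markers with 72 UMIs of Acta2 and 24 of Tagln, and the next cell held 70 and 22. The remaining 6 cells held 0 to 7 UMIs of Acta2 and 0 of Tagln. A cell of 24929 UMIs held 13 UMIs of Myog, a skeletal muscle transcription factor, and 47 of Actc1, a sarcomeric actin. Another held 11 UMIs of Cldn5, an endothelial tight junction gene. The cell of 4233 UMIs held 11 UMIs of Rgs5 and 25 of Vtn, which encodes the matrix protein vitronectin, with 0 of Acta2. These 8 cells are accordingly called cells that met the rule, and they differed from other cells of their library past the fold at 473 of 9676 tested genes in the higher direction (4.89%) and 748 in the lower (7.73%). The median difference was 0.11, and with differences centred on it these counts were 336 and 898. Between E16.5 and E13.5 cells without Myh11, 492 of 4967 tested genes were higher at E16.5 (9.91%) and 226 were lower (4.55%), with 8 cells on the earlier side.

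The markers that chose the cells were unevenly spread among them. Rgs5 was above 0 in 84.8% of mural cells at E16.5 and 96.9% at P0, against 6.21% and 6.18% of keratinocytes. Kcnj8 was found in 85.9% and 66.4%, and Abcc9, the regulatory subunit of the same channel, in 80.4% and 43.7%, against 6.70% and 3.26% and 5.39% and 1.25% of keratinocytes. These genes neighbour each other on chromosome 6 of GRCm38 on the minus strand, Kcnj8 at 142564837 to 142571614 and Abcc9 at 142587862 to 142702315, with 16247 bases between them. Since cells with Myh11 needed only 3 further markers, levels of rule genes in the cells with and without Myh11 are a description of the choice and support nothing.

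Comparing cells with and without Myh11 within each library addressed how far a contractile programme separated mural cells that shared a stage, an enzyme and a library. Genes of the contractile apparatus were higher in cells with Myh11 at both stages. Of 25 listed genes, 12 of 17 tested were higher past the fold at E16.5 and 14 of 19 at P0, with 0 lower at either stage. Over all tested genes 1.38% of 5518 were higher at E16.5 and 2.92% of 4077 at P0, and 3.52% and 4.02% were past the fold in either direction. The median difference of the list was 1.70 at E16.5 and 2.06 at P0, against -0.02 and -0.05 over all tested genes. Within the main cluster alone, 10 of 16 and 14 of 19 were higher past the fold, with medians of 1.45 and 1.98.

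Acta2, the smooth muscle actin of vascular walls, was at 5711 CPM in cells with Myh11 and 759 CPM in cells without at E16.5, and at 8921 and 935 CPM at P0. Other cells of the libraries stood at 39.7 and 40.7 CPM. The difference was 2.90 (2.80 to 2.99) at E16.5 and 3.24 (3.13 to 3.36) at P0. Cell by cell, in UMIs per 10000, Acta2 ran from 0 through a median of 47.2 to 157 in cells with Myh11 at E16.5 and from 0 through 1.57 to 93.3 in cells without. At P0 it ran from 0 through 73.1 to 374 with Myh11 and from 0 through 3.71 to 85.0 without. The medians were far apart, but the ranges overlapped at both stages.

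Tagln, which encodes the actin-binding protein transgelin, was at 1018 CPM with Myh11 and 96.8 CPM without at E16.5. At P0 it was at 1610 and 54.0 CPM, with other cells at 34.2 CPM. Cell by cell, the upper quartile of Tagln was 0 UMIs per 10000 in cells without Myh11 at both stages, whereas its median was 7.87 at E16.5 and 5.18 at P0 in cells with Myh11. Myl9, the regulatory light chain of smooth muscle myosin, was at 1898 and 544 CPM at E16.5 and at 4067 and 932 CPM at P0. Its differences were 1.78 (1.65 to 1.92) and 2.11 (1.99 to 2.24). Mylk, the kinase that phosphorylates this light chain, was at 880 and 183 CPM at E16.5 and at 1555 and 452 CPM at P0. Unlike Tagln, Myl9 and Mylk were also well above other cells in the cells without Myh11, where other cells stood at 71.7 CPM for Myl9 and 20.2 CPM for Mylk at P0.

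Actg2, Cnn1 and Lmod1 were at 11.7 CPM or less in cells without Myh11. Actg2, an actin of visceral smooth muscle, was at 177 CPM with and 11.7 CPM without Myh11 at E16.5, a difference of 3.11 (2.63 to 3.56). At P0 it was at 443 CPM from 403 UMIs with Myh11 against 1 UMI without, a ratio of 304 with a counting interval of 54.2 to 12029. Cnn1, the actin- and calmodulin-binding calponin of smooth muscle, had 59 UMIs with and 0 without Myh11 at P0 and was at least 14.8-fold higher, with 3 UMIs over the group taken as the floor. Lmod1, a leiomodin that nucleates smooth muscle actin filaments, was at 90.8 and 9.33 CPM at E16.5 and 211 and 11.7 CPM at P0. Des, the intermediate filament of muscle cells and pericytes, did not follow this pattern. It was at 205 and 165 CPM at E16.5 and at 660 and 722 CPM at P0, with differences of 0.30 (-0.03 to 0.62) and -0.13 (-0.30 to 0.04). Smooth muscle of the arrector pili also lies in skin. Its 4 markers, Itga8, Npnt, Actg2 and Des, summed to 387 CPM with and 198 CPM without Myh11 at E16.5 and to 1117 and 731 CPM at P0, where other cells stood at 29.6 CPM. Most of each sum came from Des and Actg2. Npnt, a matrix ligand of the integrin Itga8, was at 0 with Myh11 at E16.5 and without Myh11 at P0. At E16.5 without Myh11, Itga8 was at 18.7 CPM and Npnt at 2.92 CPM. Against other cells at P0, Des and Actg2 were higher past the fold in mural cells and Npnt was lower. The part of arrector pili cells in the results was not tested.

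**Figure D2:**
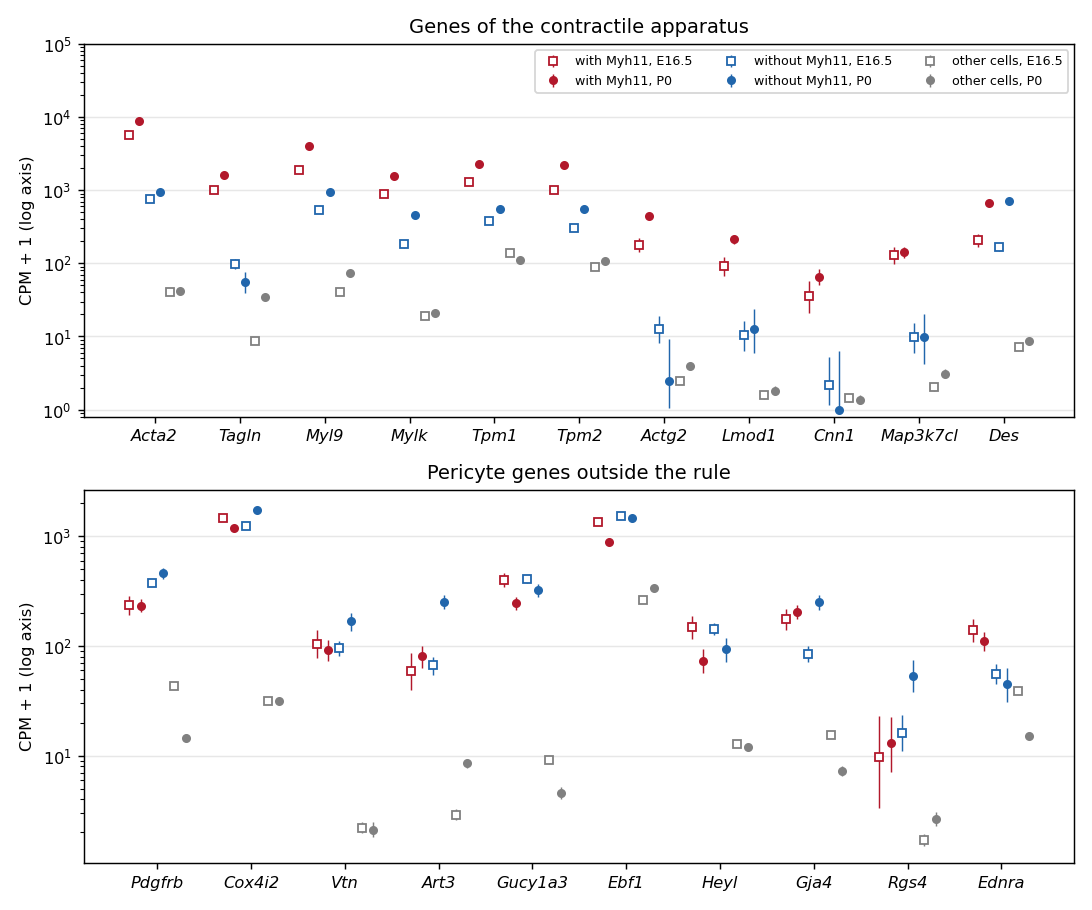
Level of contractile genes (top) and of pericyte genes that the rule did not use (bottom) in mural cells with Myh11, mural cells without Myh11 and all other cells, as CPM + 1 on a log axis with 95% counting intervals; squares are E16.5 and circles are P0. Contractile genes except Des were higher with Myh11, for example Acta2 at 8921 against 935 CPM at P0, while pericyte genes such as Cox4i2 were above other cells in both groups.

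The promoters of 3 of these genes are shown because contractile genes were higher together and many are known targets of serum response factor, which binds the CArG box. The sequences are the 250 bases before the RefSeq start on GRCm38.p6, read 5′ to 3′ on the gene's strand, and capitals mark matches to the CArG box that were exact or 1 letter off, searched on both strands. Acta2 lies on the minus strand (chr19:34255374-34255623), Myl9 on the plus strand (chr2:156775214-156775463) and Lmod1 on the plus strand (chr1:135324563-135324812).
Acta2: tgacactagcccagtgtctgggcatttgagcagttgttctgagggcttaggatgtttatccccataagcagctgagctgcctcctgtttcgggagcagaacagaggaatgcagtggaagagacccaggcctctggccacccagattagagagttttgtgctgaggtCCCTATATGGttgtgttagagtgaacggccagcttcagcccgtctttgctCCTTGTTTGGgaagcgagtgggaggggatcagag
Myl9: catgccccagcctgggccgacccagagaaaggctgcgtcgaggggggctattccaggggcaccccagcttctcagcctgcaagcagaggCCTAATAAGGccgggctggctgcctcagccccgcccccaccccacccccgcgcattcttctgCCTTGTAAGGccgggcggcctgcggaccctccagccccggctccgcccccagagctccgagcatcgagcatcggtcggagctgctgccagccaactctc
Lmod1: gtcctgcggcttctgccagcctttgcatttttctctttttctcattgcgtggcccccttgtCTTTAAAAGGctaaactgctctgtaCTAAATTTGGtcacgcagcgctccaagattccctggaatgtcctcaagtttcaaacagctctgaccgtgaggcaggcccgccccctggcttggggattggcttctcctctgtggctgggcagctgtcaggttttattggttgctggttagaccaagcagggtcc
The matches began at -84 and -34 in Acta2, at -161 and -99 in Myl9 and at -189 and -164 in Lmod1, counted from the start site, and the Myl9 match at -161 was exact. Of the contractile list, 22 of 25 genes had a promoter in the table, and 10 of these (45.5%) held a match that was exact or 1 letter off, against 21.1% of 27025 promoters of the same length. Exact matches were in 2 of 22, against 1.62%. The 10 include Cald1, Crip1, Myl6, Pcp4l1 and Synm, which were not higher with Myh11 past the fold in either library. The share thus describes the list as a whole and not the genes that differed. Other lists had 2 of 14 for the pericyte genes outside the rule, 7 of 23 (30.4%) for receptors and channels and 6 of 14 (42.9%) for immediate early and stress genes. Cnn1, Mylk and Tpm2 held none within these 250 bases, although Mylk and Tpm2 were higher with Myh11 in both libraries and Cnn1 was higher at P0. Such a match describes letters in this window and is not a measured binding site.

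Pericyte genes outside the rule behaved differently from the contractile list. Of 20 listed, 14 were tested at E16.5 and 15 at P0, and 2 and 3 were higher with Myh11 past the fold while 0 and 1 were lower. Over all tested genes 2.14% were lower at E16.5 and 1.1% at P0. The medians were 0.10 and -0.31. In the main cluster alone 1 of 14 was higher and 0 lower at E16.5, with a median of -0.26, and 3 of 14 were higher and 2 lower at P0, with a median of -0.46. Ednra, the receptor for the vasoconstrictor endothelin, was higher with Myh11 in both libraries, at 138 and 54.8 CPM at E16.5 (difference 1.19, 0.77 to 1.61) and 110 and 43.7 CPM at P0 (1.16, 0.65 to 1.67). Pdgfrb was at 233 CPM with and 377 CPM without Myh11 at E16.5, and at 231 and 458 CPM at P0. The intervals of its differences, -0.96 to -0.39 and -1.21 to -0.71, lay below 0, although neither difference reached the fold. At P0 its difference was -1.03 within the main cluster. Cox4i2, a subunit of cytochrome c oxidase found in pericytes, was at 1472 and 1228 CPM at E16.5 and 1196 and 1738 CPM at P0. Art3, a surface ADP-ribosyltransferase family member, was at 58.4 and 65.3 CPM at E16.5 and at 79.1 and 252 CPM at P0, where it was lower with Myh11 past the fold (-1.56, -1.93 to -1.19). Vtn was at 104 and 94.5 CPM at E16.5 and 90.1 and 166 CPM at P0. Cells without Myh11 needed 1 more of the other rule genes than cells with it. At P0 Pdgfrb was at 155 CPM in mural cells with 4 markers and 407 CPM in those with 7 to 9. Cox4i2 was at 590 and 2003 CPM in the same cells. The differences of these pericyte genes can thus be set in part by the choice of cells, and the size of that part was not tested.

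Of 29 listed receptors and channels of mural cells, 11 were tested at P0, with a median difference of -0.64. Among them Kcnj8, Agtr1a and Adra2a were lower with Myh11 past the fold while Ednra was higher. Kcnj8 is a gene of the rule and is given as a description, at 285 CPM with and 696 CPM without. Agtr1a, a receptor for angiotensin II, was at 128 and 280 CPM (-1.08, -1.40 to -0.76), whereas at E16.5 it was at 92.9 and 77.6 CPM. Adra2a, an adrenergic receptor, was at 53.9 and 153 CPM at P0 (-1.35, -1.79 to -0.91) and at 73.5 and 138 CPM at E16.5. At E16.5, 17 were tested, with Ednra higher and with Lpar1 and Pdgfra lower with Myh11. The difference of Pdgfra, a fibroblast receptor, was -1.21 over all mural cells, 0.28 within the main cluster and 0.49 after thinning. Lpar1, a receptor for lysophosphatidic acid, was at 8.65 and 40.2 CPM (-1.43, -2.09 to -0.60), and its difference was 1.58 after thinning. Before thinning, Lpar1 and Pdgfra each had 4 UMIs in the cells with Myh11 at E16.5. Thinning can only lower that number, so their thinned differences rest on few UMIs and do not decide the direction.

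Among 6 Notch targets 3 were tested at each stage. Nrarp, a feedback regulator of Notch signalling, was higher with Myh11 past the fold in both libraries, at 279 and 79.3 CPM at E16.5 (1.69, 1.36 to 2.02) and at 268 and 86.0 CPM at P0 (1.53, 1.16 to 1.92). The other 2 tested targets, Hes1 and Heyl, were not past the fold, with differences of -0.09 and 0.04 at E16.5 and 0.08 and -0.30 at P0. Jag1, a Notch ligand, was at 88.6 and 30.9 CPM at E16.5 and at 100 and 55.4 CPM at P0, past the fold at the earlier stage, and whether the stages differed in this was not tested. Of 33 transcription factors, Id4, an inhibitor of basic helix-loop-helix factors, was higher with Myh11 at both stages, with 143 against 35.6 CPM and 211 against 77.3 CPM. Foxs1, a forkhead factor of mural cells, was past the fold at E16.5 (82.1 and 30.3 CPM; 0.62 within the main cluster in place of 1.19) and Tbx2, a T-box factor, at P0 (94.5 and 37.9 CPM).

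Ligands split in both directions. Pgf, placental growth factor, was at 66.0 CPM with and 11.7 CPM without Myh11 at P0 (1.81, 1.12 to 2.43). Pdgfa was at 210 and 62.4 CPM at E16.5 and at 185 and 146 CPM at P0, and Tgfb3 at 67.0 and 21.6 CPM and at 44.0 and 21.9 CPM. Ptn, the heparin-binding growth factor pleiotrophin, was lower with Myh11 in both libraries, at 251 and 715 CPM at E16.5 (-1.48, -1.75 to -1.21) and at 42.9 and 155 CPM at P0 (-1.64, -2.10 to -1.18). In all, 3 of 15 tested ligands were higher and 3 lower at E16.5, and 1 and 2 of 12 at P0. At E16.5, 3 of 13 were higher and 1, Ptn, was lower within the main cluster.

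Genes outside the lists were named by size. At P0 the gap junction gene Gja5, known in arterial walls, was at 185 CPM with and 5.83 CPM without Myh11, and carbonic anhydrase Car4 was at 320 and 7.29 CPM. Fmod, a collagen-binding proteoglycan, had a ratio of 47.1 at P0, with a counting interval of 12.8 to 393. Gap43, a growth-associated membrane protein, led the lower side there outside the globin genes, at 10.99 CPM with and 122 CPM without Myh11. Thy1, a surface glycoprotein, was at 381 and 1204 CPM. At E16.5 Col8a1, a short-chain collagen of vessel walls, was at 136 and 9.33 CPM, and Nexn, an actin-binding protein, was at 97.3 and 11.7 CPM. Globin genes led the lower side at P0, with Hbb-bt at 68.1 and 837 CPM, but each of the 4 groups held 1 cell with over 10% of its UMIs from globin genes, up to 40.8%. Without these cells the difference of Hbb-bt was 0.37 in place of -3.44.

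Among 3851 genes tested in both libraries, 66 were higher with Myh11 past the fold at E16.5 and 70 at P0, and 34 were shared, which is 51.5% and 48.6% of the lists. Of the 66, 62 also had a difference above 0 at P0. Acta2, Actg2, Aoc3, Ednra, Fmod, Id4, Igfbp5, Lmod1, Mylk, Nrarp, Tagln, Tpm1 and Tpm2 were among the shared genes. On the lower side 58 and 40 genes passed and 10 were shared, 17.2% and 25% of the lists, with Agtr2, Gap43, Igfbp3, Mt2, Ptn and Tmem100 among them.

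Matrix genes of the interstitium separated the groups at E16.5 in a way that rested on the cells outside the main cluster. Of 24 listed, 23 were tested, 14 were lower with Myh11 past the fold and 0 higher, with a median of -1.24. Dcn, the collagen-binding proteoglycan decorin, was at 253 CPM with and 912 CPM without, and Lum, the related lumican, at 173 and 581 CPM. Within the main cluster 2 of 17 were lower and 1 higher, with a median of -0.27, and Dcn was at 180 and 285 CPM. The 8 dermal markers summed to 4321 CPM with and 7845 CPM without Myh11 at E16.5, against 9406 CPM in other cells, and 1 of them, Dpp4, was at 0 in cells with Myh11. At P0 the sums were 5502 and 4635 CPM, with other cells at 7275 CPM, and 1 of 19 matrix genes was higher with Myh11, Fn1, at 278 and 101 CPM. Within the main cluster at P0, 4 of 18 were higher and 0 lower. Epithelial markers, of which 0 of 6 were at 0, summed to 408 to 515 CPM in the 4 groups, against 3123 and 6564 CPM in other cells. Endothelial markers summed to 34.1 to 74.4 CPM, against 395 and 345 CPM, with Prox1, the lymphatic regulator, at 0 in 3 of the 4 groups. The rule left out cells with Cdh5 or Trp63, and other cells include endothelial cells and keratinocytes. These epithelial and endothelial gaps are thus set in part by the choice of cells. Dermal cells stood at 534 and 817 CPM for the epithelial markers and at 52.9 and 42.7 CPM for the endothelial markers.

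**Figure D3:**
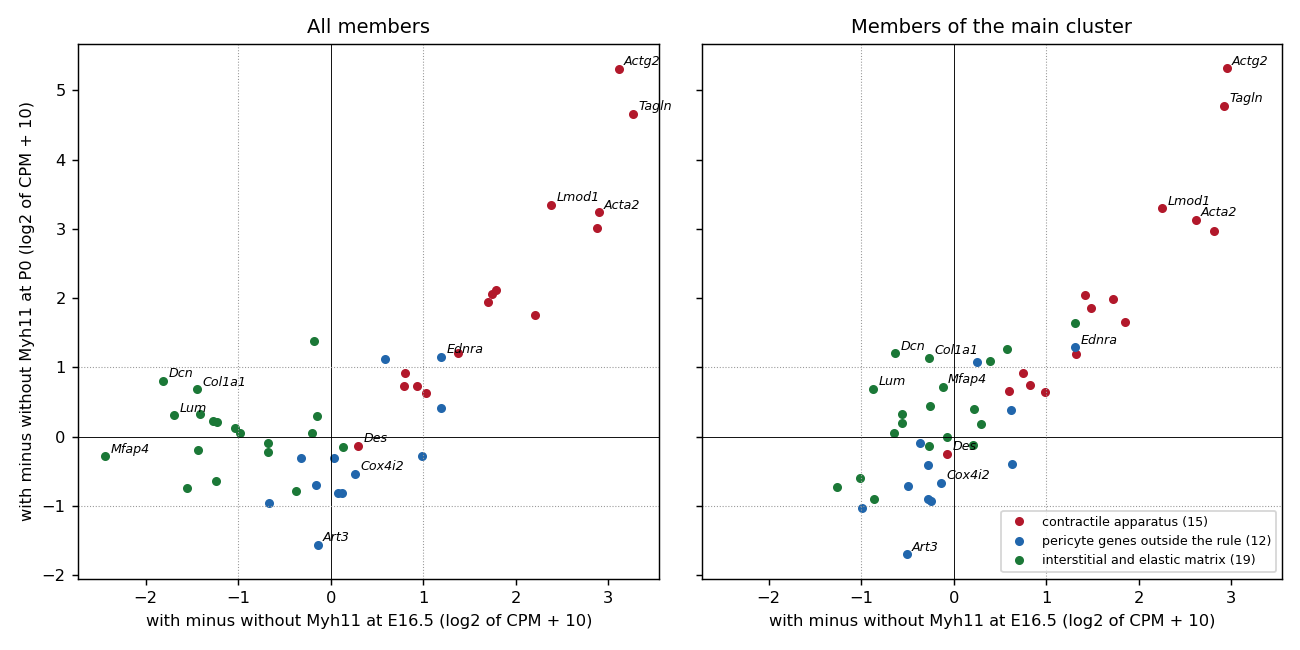
Difference between mural cells with and without Myh11 at E16.5 (x axis) and P0 (y axis), as log2 of CPM + 10, for genes of 3 lists tested at both stages; dotted lines mark the fold. Left, all mural cells; right, mural cells of the main cluster of each library. Contractile genes such as Acta2 lie high on both axes in both panels and Des near 0, whereas matrix genes such as Dcn move from -1.81 to -0.64 on the x axis.

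Basement membrane genes, which pericytes share with endothelium, did not pass the fold between the groups. Of 15 listed, 13 were tested at each stage, with medians of -0.12 and -0.46. Col4a1 was at 865 and 837 CPM at E16.5 and at 749 and 1258 CPM at P0, where its interval was -0.89 to -0.60. Immediate early and stress genes were not past the fold either, 0 of 13 at E16.5 and 0 of 16 at P0, with medians of -0.40 and 0.41, although 1 of 12 was lower within the main cluster at E16.5. Of the cell cycle genes 0 of 21 were higher and 1, Cdkn1c, was lower at E16.5, and 0 of 20 differed past the fold at P0. The difference of Cdkn1c was -1.45 over all mural cells and 0.12 within the main cluster.

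Levels of Acta2 and Actg2 were higher with more Myh11 UMIs. At P0 Acta2 stood at 935, 2352, 5865 and 13327 CPM in cells with 0, 1, 2 to 4, and 5 or more Myh11 UMIs, groups of 104, 33, 35 and 57 cells. Actg2 stood at 1.46, 4.67, 108 and 798 CPM in the same order. Col4a1 stood at 1258, 1008, 815 and 600 CPM. Median depth was 5659 to 5876 UMIs in the lower 3 groups and 7461 UMIs in the group with 5 or more, and its part in the result was not tested. At E16.5 Acta2 stood at 759, 2175, 5597 and 8361 CPM and Actg2 at 11.7, 76.1, 147 and 275 CPM, but the groups with Myh11 held 10, 12 and 15 cells.

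**Figure D4:**
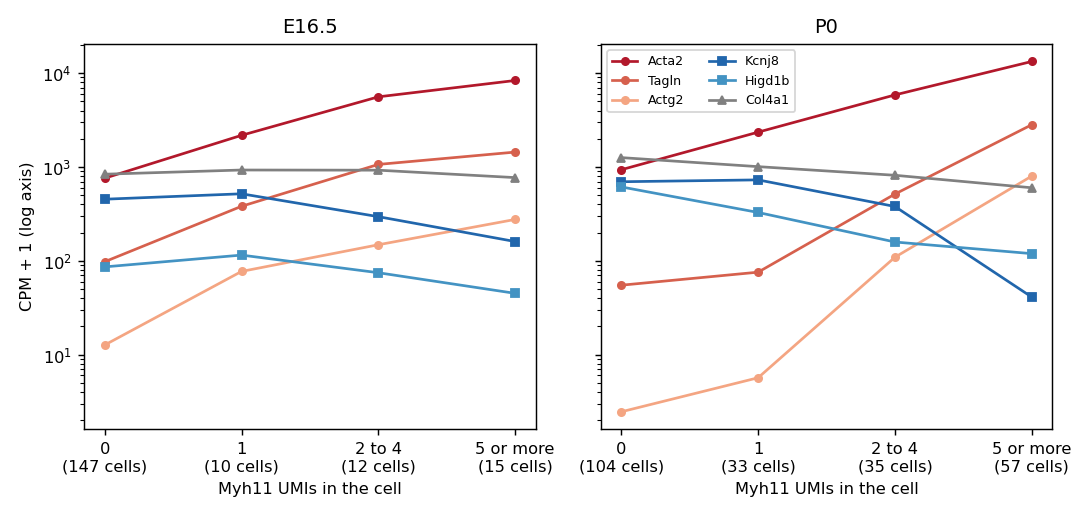
Level of 6 genes, as CPM + 1 on a log axis, in mural cells grouped by their number of Myh11 UMIs at E16.5 (left) and P0 (right), with the number of cells under each group. At P0 Acta2 is at 935 CPM in cells without Myh11 and 13327 CPM in cells with 5 or more UMIs. Kcnj8 and Higd1b are genes of the rule, of which cells without Myh11 needed 1 more, so their levels here are set in part by the choice of cells.

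Comparing P0 with E16.5 within each group addressed how mural cells differed between the stages, and the comparisons of the groups with and without Myh11 share their libraries. Des was higher at P0 in both groups, at 660 against 205 CPM with Myh11 (1.64, 1.34 to 1.95) and 722 against 165 CPM without (2.06, 1.86 to 2.27). Over all tested genes 6.13% of 3717 were higher at P0 with Myh11 and 3.15% of 5783 without, and 4.95% and 5.98% were lower, which gives 11.1% and 9.13% in either direction. The median difference was -0.07 with Myh11 and -0.12 without. With differences centred on that median, 250 genes were higher and 246 lower in the cells without Myh11, in place of 182 and 346.

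Contractile genes were higher at P0 in 8 of 19 tested with Myh11 and 2 of 13 without, with 0 lower and medians of 0.82 and 0.52. Within the main cluster, 8 of 19 were higher with Myh11, and 1 of 13 was higher and 1 lower without. Myl9 and Tpm2 were past the fold with Myh11, at 4067 against 1898 CPM and 2180 against 1005 CPM. Acta2 was not, with differences of 0.64 (0.58 to 0.71) with Myh11 and 0.30 (0.16 to 0.43) without. Tagln was at 1610 against 1018 CPM with Myh11 and at 54.0 against 96.8 CPM without. Of the pericyte genes outside the rule, 0 of 13 were higher with Myh11, and Tbx18, a T-box factor of mural cells, was lower, at 33.0 against 99.4 CPM (-1.35). Its difference was 0.34 after thinning. Tbx18 had 30 UMIs at P0 and 46 at E16.5 before thinning, which can only lower these numbers, so the thinned value does not decide the direction. Without Myh11 3 of 15 were higher, Art3 at 252 against 65.3 CPM, Gja4 at 248 against 83.4 CPM and Rgs4 at 52.5 against 15.2 CPM, and 0 were lower, with a median of 0.27. Restricted to the main cluster, 3 of 15 were higher and 2, Heyl and Tbx2, were lower, with a median of -0.03. The rule gene Higd1b was at 177 against 73.5 CPM with Myh11 and at 612 against 85.2 CPM without, and Cspg4, the proteoglycan NG2, was at 17.6 against 88.6 CPM and at 36.5 against 65.9 CPM.

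Of 3646 genes tested in both groups, 199 were higher at P0 past the fold with Myh11 and 166 without, and 104 were shared. The 104 include Higd1b, a gene of the rule, whose level is set in part by the choice of cells. Of the shared genes 48 (46.2%) were also past the fold in all other cells together, while 10 were not higher there. In other cells 181 of 8684 tested genes were higher and 241 lower. On the lower side 181 and 150 genes passed and 77 were shared. Of those, 50 (64.9%) were also past the fold in other cells and 2 were not lower there. Genes of the higher side follow. Angpt2, an antagonist ligand of the endothelial receptor Tie2, was at 89.0 against 36.7 CPM with Myh11 and 97.7 against 18.7 CPM without, and at 4.42 against 7.45 CPM in other cells and 28.1 against 28.3 CPM in endothelial cells. Cxcl12, a chemokine, was at 296 against 34.6 CPM and 153 against 68.2 CPM, and at 80.3 against 85.5 CPM in other cells. Ccl2, a monocyte chemokine, was at 207 against 36.7 CPM and 168 against 35.0 CPM, and at 8.35 against 9.33 CPM in other cells. Nrgn, a calmodulin-binding protein, was at 673 against 51.9 CPM and 360 against 53.1 CPM, and at 8.53 against 18.0 CPM in other cells. The difference between cell types was not tested. Car4 had 291 UMIs with Myh11 at P0 and 0 at E16.5 and was at least 49.3-fold higher, with 3 UMIs over the group as the floor.

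Stage differences of Igf2, H19, Mest, Fabp4 and Ramp1 were also seen outside mural cells. Igf2, the imprinted growth factor, was lower at P0, at 16.49 against 759 CPM with Myh11 and 10.2 against 955 CPM without, and at 47.5 against 841 CPM in other cells. H19, the imprinted RNA next to it, was at 167 against 711 CPM and 115 against 1062 CPM, and at 554 against 1229 CPM in other cells. Mest, another imprinted gene, was at 58.3 against 517 CPM and 75.8 against 846 CPM, and at 193 against 626 CPM in other cells. Fabp4, a fatty acid carrier, was higher at P0, at 611 against 34.6 CPM and 1082 against 25.1 CPM, and at 898 against 190 CPM in other cells. Ramp1, a partner of the receptor for the vasodilator peptide CGRP, was at 308 against 41.1 CPM and 156 against 14.6 CPM, and at 65.0 against 4.39 CPM in other cells. For Agtr1a and Itga1 levels are given in mural cells only. Agtr1a was at 128 against 92.9 CPM with Myh11, which was not past the fold, and at 280 against 77.6 CPM without, which was. Itga1, a collagen-binding integrin, was lower at P0, at 27.5 against 136 CPM and 35.0 against 111 CPM.

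Cell cycle genes were lower at P0 in 5 of 21 tested with Myh11 and 3 of 22 without, and Cdkn1a, a cell cycle inhibitor induced by stress, was higher in both, at 100 against 10.8 CPM and 125 against 23.9 CPM. The proliferation gene Top2a was at 84.6 against 357 CPM and 109 against 267 CPM, and at 121 against 260 CPM in other cells. Immediate early and stress genes were higher in 10 of 16 with Myh11 and 6 of 15 without, with medians of 1.91 and 0.95, and 1 was lower in each, Hsp90aa1 with Myh11 and Fosb without. Fos was at 2183 against 409 CPM and 1298 against 667 CPM, and at 1006 against 521 CPM in other cells. Zfp36, which shortens the life of inflammatory mRNAs, was at 619 against 34.6 CPM and 334 against 52.5 CPM, and at 135 against 36.1 CPM in other cells. The enzyme differed between these libraries, and its part in these differences was not tested.

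Matrix genes were higher at P0 in 7 of 19 tested with Myh11 and lower in 0, with a median of 0.68. Without Myh11 1 of 23 was higher and 6 were lower, with a median of -0.54, but within the main cluster 3 of 17 were higher and 1 lower, with a median of 0.00. Timp3, an inhibitor of matrix metalloproteinases, was higher in both groups, at 613 against 179 CPM and 1067 against 236 CPM. Basement membrane genes passed the fold in 1 of 12 tested with Myh11, Lama4, lower at P0 at 59.4 against 158 CPM, and in 0 of 13 without. Within the main cluster 1 of 12 was lower with Myh11. There 1 of 13 was higher without Myh11, with a median of 0.36.

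**Figure D5:**
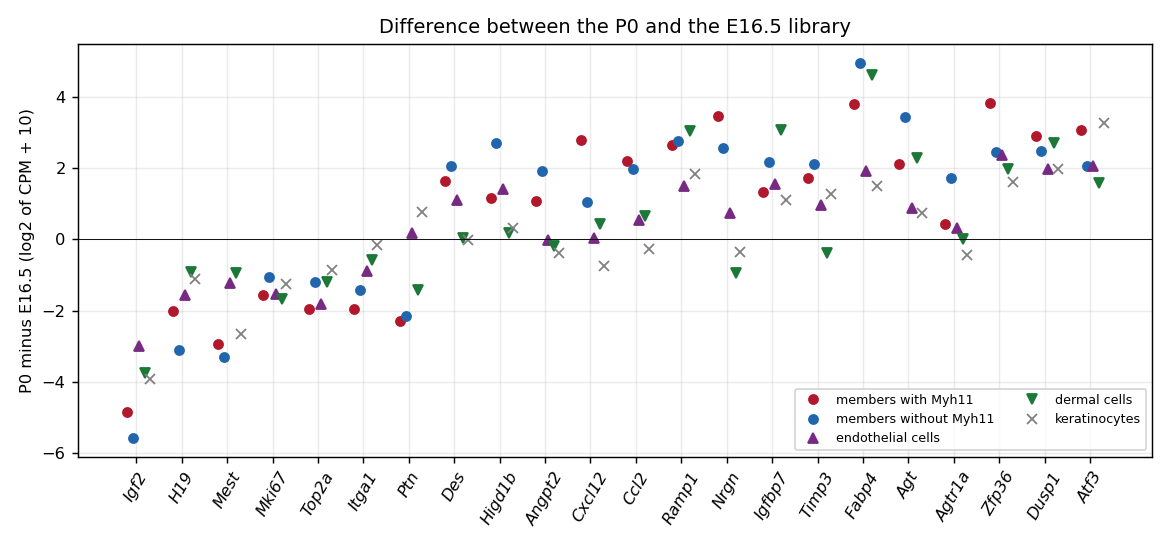
Difference between the P0 and the E16.5 library, as log2 of CPM + 10, for 22 genes in mural cells with Myh11, mural cells without Myh11, endothelial cells, dermal cells and keratinocytes. Igf2 is lower at P0 in every group shown, whereas Nrgn is higher by 3.46 in mural cells with Myh11 and lower by 0.94 in dermal cells. Higd1b is a gene of the rule, so its level in mural cells is set in part by the choice of cells.

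Set against all other cells of the library, mural cells are described only, since the same cells were chosen by the rule. Of the pericyte genes outside the rule 12 of 15 tested were higher past the fold at E16.5 and 15 of 16 at P0, with 0 lower, while 3.57% of 9081 and 7.67% of 7550 tested genes were higher. Lower past the fold were 2.69% and 5.93% of tested genes, and 6.25% and 13.6% passed in either direction. Cox4i2 was at 1280 against 30.6 CPM at E16.5 and 1429 against 30.7 CPM at P0. Gucy1a3, a subunit of the nitric oxide receptor guanylate cyclase, was at 404 against 8.18 CPM and 276 against 3.58 CPM. Of the receptors and channels 10 of 22 and 12 of 22 were higher. These counts include Kcnj8, a gene of the rule, whose higher level was set by the choice of cells. They also include Pdgfrb, and at P0 Ednra, which are counted in the pericyte list too. S1pr3, a receptor for sphingosine phosphate, was among the higher genes, at 106 against 39.3 CPM and 112 against 11.3 CPM. Basement membrane genes were higher in 5 of 14 at E16.5 and 4 of 14 at P0, among them Col4a1, Col4a2, Lama4 and Col18a1. Notch targets were higher in 4 of 5 and 3 of 3, among them Heyl, which is counted in the pericyte list too. Among transcription factors 10 of 25 and 11 of 25 were higher and 4 and 5 lower. The higher ones include Foxs1, Ebf1 and Tbx2, and at P0 Tbx18, which are counted in the pericyte list too. Nr2f2, a nuclear receptor of venous identity, was at 311 and 199 CPM in E16.5 cells with and without Myh11 against 29.8 CPM in other cells. Lpar1, a lysophosphatidic acid receptor, was lower than in other cells at both stages, with differences of -1.25 and -1.57.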

How the data were processed

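Skin of the back, taken from male mice at 3 stages, was profiled by droplet single-cell RNA-seq (10x Chromium), with 1 library for each. The submitters' processing notes name Cell Ranger 2.2.0 and the mm10 build. The authors deposited natural log values, ln(1 + UMIs per 10000), for 19165 genes in 16235 cells. UMI counts were recovered from them, and all 48197283 values above 0 came out whole (100%, tolerance 0.001). Counts were then summed over cells with numpy 2.4.6, scipy 1.17.1 and pandas 2.3.3 in Python 3.11.15, and CPM, log2 differences with 10 added to each CPM, and intervals from exact Poisson limits (95%) were computed and checked on simulated data. Each library was clustered in scanpy 1.11.5 with leidenalg 0.10.2 (2000 variable genes, 30 components, 15 neighbours, resolution 1), and Scrublet was run at a doublet rate of 0.06, with doublets kept. For thinning, cells under 3500 UMIs were left out (1 cell, at E16.5). Promoters came from RefSeq (GRCm38.p6). Genes were named from fixed lists and, in each comparison, from the 10 highest and 10 lowest differences. Members and lists were chosen with earlier results of these data known. Alternatives changed the markers, depth, doublets, added CPM, cell weights, cluster, globin and shared barcodes.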

Additional observations from a re-analysis of the deposited data

Results flagged for a closer look

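Some genes had differences past the fold in opposite directions in the groups compared, and these opposite directions were not tested. Plpp3, a phosphatase of lipid phosphates, differed between cells with and without Myh11 by -1.31 at E16.5 and 2.11 at P0, and by -0.25 and 2.59 within the main cluster. Between P0 and E16.5 it differed by 2.35 with Myh11 and -1.07 without, and by 2.57 and -0.27 within the main cluster.

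For the matrix genes, the P0 minus E16.5 difference with and without Myh11 was 1.11 and -1.46 for Emilin1, 1.21 and -1.41 for Dcn, and 1.06 and -1.07 for Col1a1. Within the main cluster these were 1.35 and -0.65, 1.16 and -0.68, and 1.20 and -0.20. For Fam46a the values were 1.39 and -1.33, and 1.33 and -0.32 within the main cluster.

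For the globin genes, the same difference with and without Myh11 was -2.44 and 1.22 for Hbb-bs, -1.35 and 1.20 for Hba-a1, and -1.70 and 1.21 for Hba-a2. Without the 1 globin-rich cell of each group these were -1.52 and -1.57, -2.25 and -1.41, and -1.94 and -1.06.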

How the results depend on the processing

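No paired analysis was possible because each stage had 1 library, and no replicate could be left out. Of the counts and shares recomputed under the alternatives, 75 stayed near the value reported and 20 did not, and of the differences of single genes 2554 stayed near it, 607 did not and 23 turned direction. A share or a difference of a single gene was near when it lay within the interval of the reported value. A count was near when it lay within a fixed factor of it. The cause was not tested for any of them. With at least 3 of 9 markers 22 cells at E13.5 and 306 at E16.5 met the rule, and the share with Myh11 was 12.7% at E16.5 and 44.6% at P0. With at least 5 markers 3 cells remained at E13.5, and with at least 2500 genes per cell 68 remained at P0. Thinning left 2 cells at E13.5 and a share with Myh11 of 43.5% at P0, and with at least 2 UMIs of Myh11 that share was 46.9%.

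Thinning also lowered the number of tested genes, so counts are given with it. Between cells with and without Myh11 at E16.5, 194 of 5518 tested genes were past the fold, and 338 of 5518 with 1 added to each CPM. Within the main cluster 113 of 4477 passed, and after thinning 102 of 1556. Between P0 and E16.5 with Myh11, thinning gave 180 of 1268 tested genes, in place of 412 of 3717. Without Myh11 it gave 259 of 2450, in place of 528 of 5783, where 1 added gave 869 of 5783. Against other cells, E13.5 gave 2583 of 9676 with 1 added and 2033 of 9453 with each cell weighing the same, in place of 1221 of 9676. It gave 4320 of 8529 within a cluster holding 2 of these 8 cells and 4480 of 5455 after thinning. E16.5 gave 983 of 9081 with 1 added, in place of 568 of 9081.

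Differences that turned direction between cells with and without Myh11 at E16.5 within the main cluster were Cdkn1c at 0.12, Dpt at 0.40, Eln at 0.39, Fbln2 at 0.25, Fibin at 0.44, Klf4 at 0.10, Loxl1 at 0.58, Mfap5 at 0.44 and Pdgfra at 0.28. After thinning they were Cdkn1c at 0.30, Eln at 0.12, Fbln2 at 0.57, Fibin at 0.91, Htra3 at 0.61, Klf4 at 1.21, Loxl1 at 0.17, Lpar1 at 1.58, Pdgfra at 0.49 and Smoc2 at 0.90. At P0, without the globin-rich cells, Hbb-bs was at 0.23 and Hbb-bt at 0.37. Between P0 and E16.5 after thinning, Tbx18 was at 0.34 with Myh11 and Col1a1 at 0.000758 without. Values after thinning come from fewer UMIs, and the rule was applied again, so the cells differ as well. Those of Lpar1, Pdgfra and Tbx18 rest on too few UMIs to decide the direction. For the other genes the UMIs left after thinning are not given here, and no direction is drawn from their thinned values either. The 37 cells with Myh11 at E16.5 and the 8 cells at E13.5 limit the precision there.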

Other observations

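Immune markers summed to 62.7 and 51.3 CPM with and without Myh11 at E16.5 and to 29.7 and 20.4 CPM at P0, while other cells stood at 385 and 146 CPM. Melanocyte markers summed to 6.48 and 2.92 CPM at E16.5 and to 19.8 and 23.3 CPM at P0, while other cells stood at 64.8 and 426 CPM. Skeletal muscle markers summed to 30.3 and 16.3 CPM at E16.5, with other cells at 30.3 CPM, and to 35.2 and 13.1 CPM at P0, with other cells at 5.09 CPM. The muscle regulators Myod1 and Myf5 were at 0 in all 4 groups. Neural markers summed to 25.9 and 26.8 CPM at E16.5, with other cells at 15.3 CPM, and to 17.6 and 14.6 CPM at P0, with other cells at 6.93 CPM. Erythroid markers summed to 2276 and 1671 CPM at E16.5, with other cells at 1663 CPM, and to 825 and 3166 CPM at P0, with other cells at 528 CPM. These sums include 1 cell in each of the 4 groups with 22.2 to 40.8% of its UMIs from globin genes. The next highest cell of each group held 0.113 to 0.978%. Without the globin-rich cells the P0 minus E16.5 difference of Hba-a1 in cells without Myh11 was -1.41 in place of 1.20. Schwann cell markers summed to 88.6 CPM in cells with Myh11 at E16.5, against 23.9 CPM in cells without and 53.9 CPM in other cells, and to 13.2 and 11.7 CPM at P0, with other cells at 49.1 CPM. The rule left out cells with Ptprc or Sox10, so the immune, melanocyte and Schwann cell sums are set in part by the choice of cells. Cartilage and tendon markers summed to 92.9 and 33.8 CPM at E16.5, with other cells at 32.6 CPM, and to 61.6 and 10.2 CPM at P0, with other cells at 128 CPM. Beyond the globin-rich cells, the part of cells of these other types in the results was not tested. Tnmd, a tendon and mesenchymal membrane protein, was among the genes higher past the fold with Myh11 at both stages.

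Hypoxia genes did not pass the fold between cells with and without Myh11, with 0 of 5 tested at E16.5 and 0 of 2 at P0. Between P0 and E16.5, 1 of 3 tested in cells without Myh11, the glycolytic gene Pgk1, was lower at P0.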
